A study of Mus musculus with 67 samples.

Results

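The genes described here encode the enzymes, readers and motors that write, erase, recognise and rearrange chromatin marks. They were chosen by gene symbol from the table that pairs the array's spots with genes: the histone deacetylase (Hdac, Sirt), remodeller (Smarc, Chd, Baz, Arid), methyltransferase (Setd, Kmt, Prmt, Ezh, Dnmt), demethylase (Kdm), acetyltransferase (Kat), reader (Brd, Phf, Cbx, Ing) and corepressor (Ncor, Sin3) stems, leaving out Kdm5c, Kdm5d and Kdm6a. The stems found 63 genes, measured by 85 spots, of 3905 genes with a single symbol, measured by 4788 spots. They fell into 16 subfamilies. No Hdac, Sirt or Ncor symbol was among them, and the Ezh stem found a single gene, Ezhip, whose product is an inhibitor of the EZH methyltransferases and not an enzyme.

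Cortical RNA of 67 C57BL/6 mice of both sexes was hybridised to filters spotted with mouse cDNA clones, 1 filter array per mouse, to ask how age, energy intake and gender bear on transcripts of the brain. Mice fed ad libitum (AL) were about 1, 6, 16 or 24 months old, and those under caloric restriction (CR) 6, 16 or 24 months. Restricted mice had full feed for 13 weeks, then a fortified feed at 90% for 1 week, 75% for 1 week and 60% from then on. Each of the 14 groups of age, diet and sex had 5 mice, apart from CR males, with 4 at 6 months and 3 at 24 months. The youngest class ran from 17 to 44 days and the oldest from 673 to 743 days. The labels name no transgene, deletion or drug in any group.

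Chromatin modifiers act on the histones around which DNA is wound. Writers add acetyl or methyl groups, erasers take them off, and readers with bromodomains, chromodomains or PHD fingers bind the marked tails. Remodellers of the SWI/SNF, ISWI and CHD types burn ATP to slide or evict nucleosomes. In neurons these proteins are known for setting which genes answer to activity, and mutations in several of their genes (Arid1a, Chd7, Chd8, Setd5, Kat6b, Kmt2c) are known causes of human neurodevelopmental disorders.

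Values are z-scores within each array: 0 is the mean of all spots on a filter and 1 is the SD over them. A difference between groups is thus a step in units of that SD. Whether intensities were logged before the z transformation is not stated, and no fold is given for any difference. A spot's z depends on its clone as well as on its transcript, so levels of different genes were not ranked against each other. In whole cortex, fewer cells of a type and less RNA per cell cannot be told apart.

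The arrays formed 2 sets along their running number. Arrays 1 to 45 and arrays 46 to 67 differed past adjusted p < 0.05 in limma for 17 of the 22 chromatin genes tested (77.3%), against 79.1% of all genes tested. The set difference, later set minus earlier set, ran from -1.46 z for Chd9 and -0.71 z for Setd5 to 0.37 z for Phf5a and 1.09 z for Chd1l. For Smarca5 it was -0.050 z, for Kmt2c -0.035 z and for Kdm5b -0.013 z, none of these 3 past the threshold. Every group of age, diet and sex had mice in both sets, and the set was a term in each fit. Fitted differences therefore need not equal the gap between raw group means. Array 67, replicate 5 of the AL females of 24 months, correlated least with the others. Array 27, replicate 2 of the AL males of 24 months, carries the title of an old mouse and the free-text description of a young one. Where a fitted difference given below for a tested chromatin gene moved by over 1.5 times, or across unadjusted p < 0.05, without either array, both values are given. Markers of neurons (4 of 12 listed), astrocytes (3 of 9), oligodendrocytes (1 of 8) and endothelium (1 of 4) were measured, all with mean z above 0, the choroid plexus marker Ttr had a mean z of -0.24, and no listed microglial marker was measured.

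A gene was tested where its mean z over all arrays was above 0, which kept 22 of the 63 chromatin genes (34.9%) and 1654 of all 3905 genes (42.4%). The filter uses the mean of all 67 arrays and not that of a group. Tested genes were Arid1a, Arid2, Baz2a, Cbx7, Chd1l, Chd4, Chd7, Chd9, Kat6b, Kdm5b, Kmt2c, Phf5a, Phf11d, Phf23, Prmt5, Prmt7, Prmt9, Setd1b, Setd5, Setd6, Sin3a and Smarca5. The other 41 lay below 0, among them every Brd, Dnmt and Ing gene and Ezhip. Their means over spots were below the average spot, which does not show that the transcripts were absent. Some had a single brighter spot, such as Brd1 at 0.48 z and Phf20 at 0.83 z. In all, 29 of the 63 genes had a spot with mean z above 0.

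**Figure D1:**
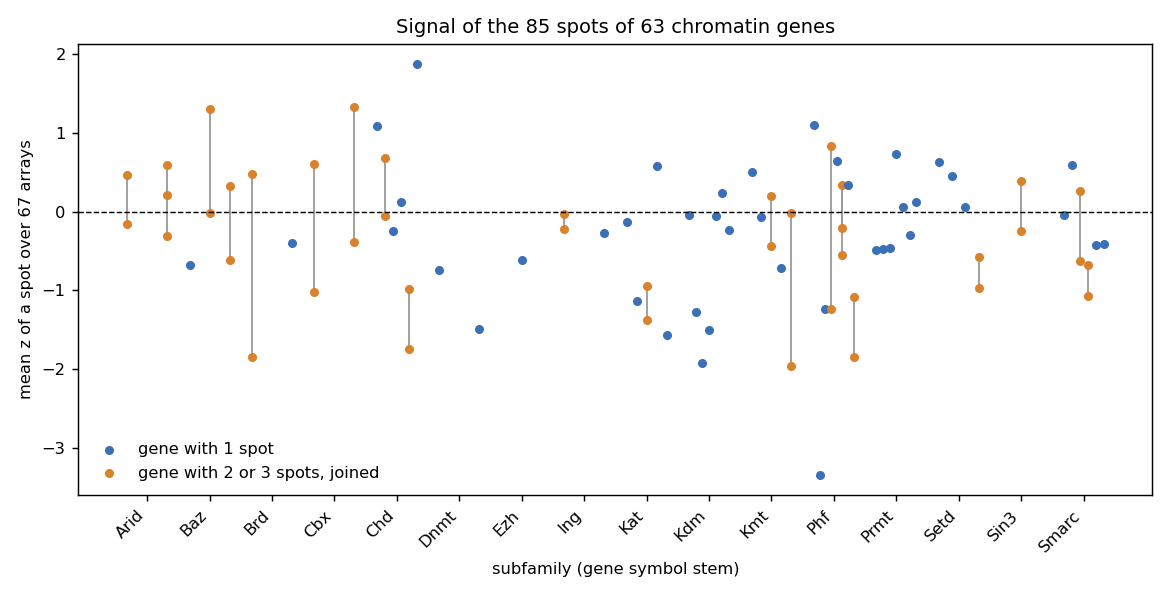
The vertical axis gives the mean z of each spot over 67 arrays and the horizontal axis the subfamily; blue points are genes with 1 spot, orange points joined by a line are genes with 2 or 3 spots. Spots of the same gene often lie far apart, by as much as 2.32 z for Brd1, and 15 of the 24 pairs lie on either side of 0.

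Of the 63 genes, 43 had 1 spot and 20 had more. The 24 pairs of spots of the same gene differed in mean z by 0.19 to 2.32, with a median of 0.74, and 15 pairs lay on either side of 0. Once group and set means were removed, the correlation of such a pair across the 67 arrays ran from -0.35 (Kat6a) to 0.38 (Baz2a), with a median of -0.08. These correlations are a description, since the points share arrays and depth of hybridisation. Spots given the same symbol thus seldom moved together from mouse to mouse, and a gene's mean over its spots hides this. For Cbx7, a Polycomb reader, the spots had mean z of -0.38 and 1.33. For Kmt5c, which methylates histone H4, they were at -0.016 and -1.95, and for the nucleosome remodeller Chd4 at -0.055 and 0.68.

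No chromatin gene passed adjusted p < 0.05 in any of the 11 comparisons. Limma called 0 of the 22 tested, and over all 1654 genes it called 0 (0%) in 10 comparisons and 2 (0.121%) for restriction at 24 months. The smallest adjusted p of a chromatin gene was 0.199, for Setd5 under restriction at 24 months. Counts at unadjusted p < 0.05 are given next, beside the share of all genes at that level, because they show how the chromatin genes stood relative to the whole array.

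With age, 1 of 22 (4.55%) had unadjusted p < 0.05 from 1 to 6 months, against 4.29% of all genes tested. From 6 to 16 months it was 0 of 22 against 2.72%, from 16 to 24 months 3 of 22 (13.6%) against 14.0%, and from 6 to 24 months 1 of 22 (4.55%) against 6.41%. Under restriction the counts were 0 of 22 at 6 months (3.93% of all genes), 0 of 22 at 16 months (1.09%) and 3 of 22 (13.6%) at 24 months (10.7%). Between adult females and males, 2 of 22 (9.09%) stood beside 9.98% of all genes. Mice of 33 to 44 days against those of 17 to 21 days gave 0 of 22 (1.75%). The change in the restriction difference from 6 to 24 months gave 4 of 22 (18.2%) beside 9.31%, and the change in the sex difference from 6 to 24 months 0 of 22 beside 7.74%. Apart from the 4 genes of the restriction interaction, these shares lay near or below those of the array as a whole.

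All 63 genes could be compared when the filter on low values was dropped, again with 0 called in every comparison. At unadjusted p < 0.05 there were then 4 genes (6.35%) from 1 to 6 months against 4.89% of all 3905 genes, 3 (4.76%) against 3.71% from 6 to 16 months, 8 (12.7%) against 12.9% from 16 to 24 months and 3 (4.76%) against 6.50% from 6 to 24 months. Restriction gave 6 (9.52%) against 5.04% at 6 months, 2 (3.17%) against 1.72% at 16 months and 7 (11.1%) against 11.4% at 24 months. The sexes gave 4 (6.35%) against 8.48%, the days of the youngest mice 1 (1.59%) against 3.20%, the restriction interaction 8 (12.7%) against 10.5% and the age by sex interaction 1 (1.59%) against 6.58%. The chromatin genes had 7 or 8 such values in 3 comparisons, from 16 to 24 months, for restriction at 24 months and in the restriction interaction, which were also the 3 with the highest shares over all genes.

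**Figure D2:**
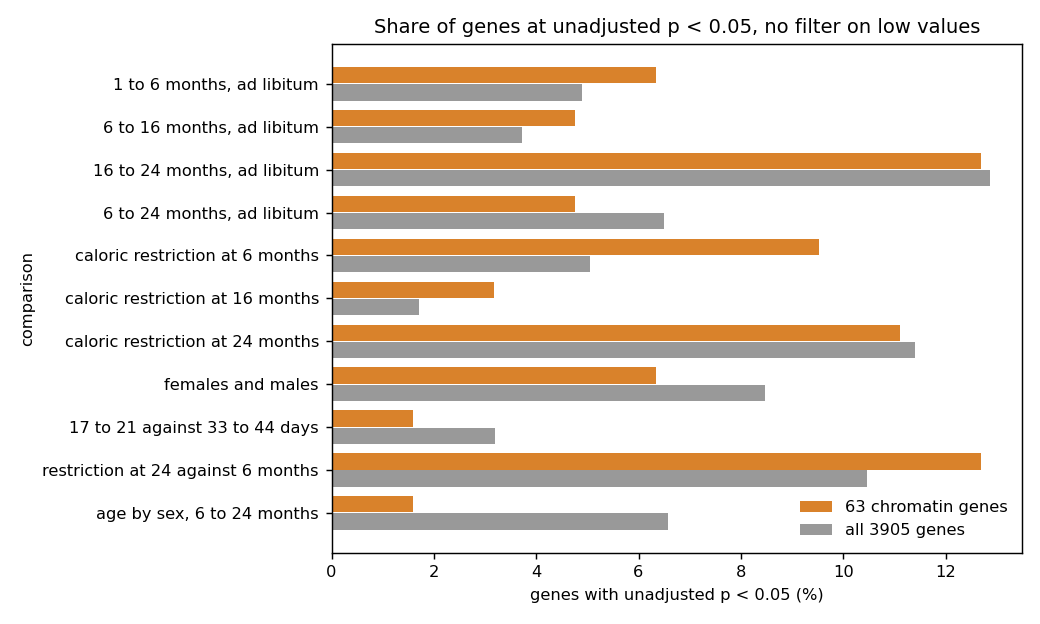
Bars give the share of genes at unadjusted p < 0.05 in limma, in percent, for the 63 chromatin genes (orange) and all 3905 genes (grey), without a filter on low values, in 11 comparisons. From 16 to 24 months the bars reach 12.7% and 12.9%, and for restriction at 24 months 11.1% and 11.4%.

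The differences were small. Over the 22 genes the median difference was 0.012 z from 16 to 24 months (14 higher, 8 lower) beside -0.009 z over all genes tested, of which 45.6% were higher. For restriction at 24 months it was -0.017 z (6 higher, 16 lower) beside 0.008 z, with 53.6% of all genes higher. Without the filter, 44 of 63 genes were lower in restricted mice of 24 months (30.2% higher, against 46.9% of all genes) and 39 of 63 were higher at 24 than at 16 months (61.9%, against 50.4%). Both comparisons use the same AL mice of 24 months, so the opposite leanings are not separate observations. All 95% confidence intervals of the 22 genes lay within -0.31 and 0.57 z from 16 to 24 months, within -0.44 and 0.38 z for restriction at 24 months, and within -0.22 and 0.17 z for the sexes. The median half-width of these intervals was 0.117, 0.126 and 0.070 z.

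**Figure D3:**
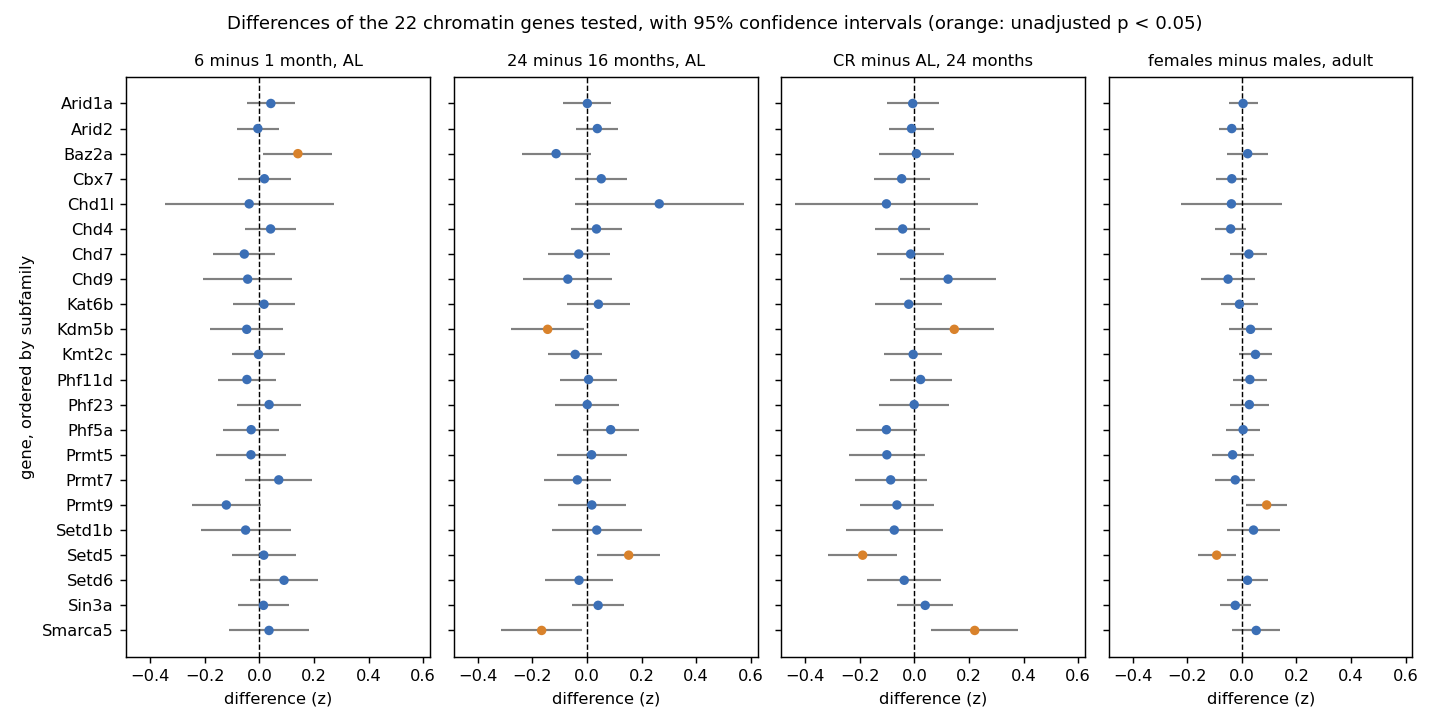
Points give the fitted difference in z for each of the 22 tested chromatin genes in 4 comparisons, and lines the 95% confidence interval from limma. Orange points (1 gene from 1 to 6 months, 3 from 16 to 24 months, 3 for restriction at 24 months, 2 between sexes) have unadjusted p < 0.05; none passed the adjusted threshold, and the widest intervals are those of Chd1l.

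Writers of histone lysine methylation are the SET-domain proteins of the Setd and Kmt subfamilies. Setd5, a SET-domain protein tied to transcription elongation and histone deacetylation, had the smallest p of all chromatin genes under restriction at 24 months. In arrays 1 to 45 its z in AL mice of 24 months ran from 0.57 through a median of 0.91 to 1.03 (n = 6), while restricted mice lay at 0.49, 0.66 and 0.81 (lowest, median and highest, n = 5). In arrays 46 to 67 the AL mice had -0.15, 0.050 and 0.15 (n = 4) and the restricted mice -0.25, -0.12 and -0.08 (n = 3). The old AL mice stood above the restricted mice on average in both sets, with overlap in each. The fitted difference was -0.190 ± 0.063 z (SE; unadjusted p = 0.00373, adjusted p = 0.199, limma).

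From 16 to 24 months on AL feed Setd5 differed by 0.153 ± 0.058 z (unadjusted p = 0.0108, adjusted p = 0.275, limma), and from 6 to 24 months by 0.138 ± 0.058 z (adjusted p = 0.621). Without array 27 the latter was 0.117 z (unadjusted p = 0.0558), and without the set term 0.067 z. The gap from 16 to 24 months was 0.233 z in arrays 1 to 45, where AL mice of 16 months had 0.40, 0.69 and 0.82. In arrays 46 to 67 the group means were -0.0075 and 0.025 z. Without the set term the size was unchanged at 0.153 z but p was 0.373, since the sets lie 0.71 z apart. The gene's level was also 0.092 ± 0.035 z lower in adult females than in males (unadjusted p = 0.0103, adjusted p = 0.360, limma), with raw means of 0.38 ± 0.38 (SD, n = 30) and 0.50 ± 0.37 z (SD, n = 27) that overlap widely. The age by sex value of Setd5 from 6 to 24 months was -0.16 ± 0.117 z (adjusted p = 0.625, limma), and -0.104 z without array 67.

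The other Setd genes gave little. Setd1b, the catalytic subunit of a complex that methylates H3K4 at promoters, had no fitted difference past unadjusted p < 0.05, and its smallest-p comparison was that of 33 to 44 against 17 to 21 days (0.136 ± 0.115 z). There the older pups ran from 0.10 to 1.55 z around a median of 0.87 and the younger from 0.40 to 0.58 around 0.46 (n = 5 each), so the younger range lay inside the older. Without male replicate 1, an older pup, the difference was -0.041 z. Setd6, which methylates non-histone proteins such as a subunit of NF-kappaB, was at 0.048 ± 0.122 z at 6 months and -0.040 ± 0.218 z at 1 month (SD, n = 10 each), a difference of 0.090 ± 0.063 z (adjusted p = 0.999), and of 0.037 z without female replicate 4 of 1 month. Setdb1, which silences repeats through H3K9 methylation, lay below the filter at a mean z of -0.77.

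Kmt2c, a large enzyme that marks enhancers with H3K4 methylation, had mean z of 0.48 ± 0.097 at 6 months, 0.56 ± 0.068 at 16 months and 0.47 ± 0.099 in restricted mice of 16 months (SD, n = 10 each). Individual AL mice of 16 months ran from 0.48 to 0.67 and restricted ones from 0.32 to 0.62, and 5 of the restricted mice lay below every AL mouse. The restriction difference was -0.092 ± 0.049 z (unadjusted p = 0.066, adjusted p = 1, limma), with -0.118 z in males, -0.066 z in females, -0.112 z in arrays 1 to 45 and -0.063 z in arrays 46 to 67. From 6 to 16 months it was 0.086 ± 0.049 z (adjusted p = 0.999). Both use the AL mice of 16 months. The remaining Kmt genes (Kmt2e, Kmt5a, Kmt5b, Kmt5c) were below the filter.

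Arginine methyltransferases add methyl groups to arginines of histones, splicing factors and other proteins. Of 7 Prmt genes 3 were tested. Prmt9, whose main known substrate is a splicing factor, was 0.091 ± 0.038 z higher in adult females than in males (unadjusted p = 0.0188, adjusted p = 0.389, limma). Females ran from -0.67 through 0.16 to 0.43 z and males from -0.30 through 0.07 to 0.32 z, with wide overlap. The value of -0.67 z belonged to a single AL female of 6 months, far below the other 9 AL mice of that age, the next of which was at 0.070 z. From 1 to 6 months Prmt9 differed by -0.121 ± 0.063 z (adjusted p = 0.999), and by -0.053 z without that mouse. Leaving out this mouse, singled out by its value, took the female minus male difference to 0.114 z (unadjusted p = 0.000616, limma). With any 1 array left out, the smallest adjusted p of a chromatin gene between the sexes was 0.188 in limma. The sex difference was 0.093 z within arrays 1 to 45, and within arrays 46 to 67 Prmt9 lay below the filter.

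Prmt5, which makes symmetric dimethylarginine on histones and on spliceosomal proteins, was at 0.78 ± 0.22 z (SD, n = 10) in AL mice and 0.66 ± 0.17 z (SD, n = 8) in restricted mice of 24 months. At 6 months the order was turned, with 0.67 ± 0.30 z (SD, n = 10) on AL feed and 0.76 ± 0.13 z (SD, n = 9) under restriction. The restriction difference went from 0.108 ± 0.066 z at 6 months to -0.101 ± 0.069 z at 24 months, an interaction of -0.209 ± 0.096 z (unadjusted p = 0.0329, adjusted p = 0.490, limma). At 6 months the difference was 0.161 z in arrays 1 to 45 and -0.048 z in arrays 46 to 67, and 0.045 z without AL male replicate 2. Prmt7, which makes monomethylarginine, was at 0.084 ± 0.216 z at 33 to 44 days and -0.132 ± 0.184 z at 17 to 21 days (SD, n = 5 each), a fitted difference of 0.16 ± 0.086 z (adjusted p = 0.996) between overlapping groups. Without male replicate 4 of 1 month it was 0.083 z, and without female replicate 4 it was 0.239 z. All 5 younger pups were in the earlier set of arrays.

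Among acetyltransferases only Kat6b, a MYST-family enzyme for histone H3, was tested. AL mice of 6 months ran from 0.33 to 0.86 z and restricted mice from 0.16 to 0.83 z, a difference of -0.101 ± 0.059 z (unadjusted p = 0.09, adjusted p = 0.993, limma). The other 4 Kat genes (Kat2a, Kat2b, Kat6a, Kat8) were below the filter. Without it, all 5 Kat genes were higher at 24 than at 16 months, by 0.042 to 0.080 z, and all 5 were lower in restricted than in AL mice of 24 months, by -0.195 to -0.021 z. Only Kat8, the H4K16 acetyltransferase, had unadjusted p < 0.05 among these values (-0.195 ± 0.075 z under restriction, adjusted p = 0.277). The same old AL mice enter both comparisons. Such leanings were not particular to the Kat genes. In the same fit, 7 of 8 Phf genes were higher and 4 of 6 Chd genes lower from 16 to 24 months. Under restriction at 24 months all 4 Setd genes were lower and 2 of 3 Baz genes higher.

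DNA methyltransferases were represented by Dnmt3a and Dnmt3b, the enzymes that set new methylation on DNA, at mean z of -0.74 and -1.48. Dnmt3a is known as the main such enzyme of neurons after birth. Its group means ran from -0.83 ± 0.11 z in AL mice of 6 months (SD, n = 10) to -0.66 ± 0.32 z in restricted mice of that age (SD, n = 9), which was the widest gap of the gene (0.185 ± 0.094 z without the filter, unadjusted p = 0.0533, adjusted p = 0.964, limma). Dnmt3b was at -1.38 ± 0.14 z in AL mice and -1.54 ± 0.10 z in restricted mice of 16 months (SD, n = 10 each), a difference of -0.161 ± 0.068 z (adjusted p = 0.999). From 6 to 16 months on AL feed it differed by 0.146 ± 0.069 z (adjusted p = 0.999), again with the AL mice of 16 months. Ezhip stayed between -0.63 and -0.60 z in all 7 groups of age and diet, and its largest fitted difference between these groups was 0.056 ± 0.055 z, under restriction at 6 months.

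Of 7 demethylases only Kdm5b, which removes methyl groups from H3K4, was tested. Its z in AL mice ran from -0.03 through 0.29 to 0.45 at 16 months and from -0.19 through 0.175 to 0.30 at 24 months (n = 10 each), and in restricted mice of 24 months from 0.18 through 0.24 to 0.48 (n = 8). The old AL mice were the lowest of the 3 groups, with overlap: every restricted mouse lay at or above 0.18 z, and the AL median was 0.175 z. The difference from 16 to 24 months was -0.144 ± 0.067 z (unadjusted p = 0.0352, adjusted p = 0.319, limma), and under restriction at 24 months 0.146 ± 0.072 z (unadjusted p = 0.0472, adjusted p = 0.462). Both differences were in the same direction in males and females and in both sets of arrays, with -0.080 and -0.240 z from 16 to 24 months and 0.064 and 0.268 z under restriction. Without array 67 they were -0.104 z and 0.107 z, with unadjusted p of 0.119 and 0.136.

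At 6 months the restricted mice had the lower mean of Kdm5b, 0.13 ± 0.18 z (SD, n = 9) against 0.25 ± 0.094 z (SD, n = 10), a difference of -0.121 ± 0.069 z (adjusted p = 0.993). The restriction difference at 24 months minus that at 6 months was 0.267 ± 0.0998 z (unadjusted p = 0.00951, adjusted p = 0.347, limma). It was 0.176 z within arrays 1 to 45 and 0.418 z within arrays 46 to 67. At 16 months the difference was 0.087 ± 0.067 z, and 0.020 z without a restricted male at 0.95 z. From 6 to 24 months on AL feed Kdm5b differed by -0.130 ± 0.067 z (unadjusted p = 0.0574, adjusted p = 0.751, limma), and without array 27 by -0.154 z (unadjusted p = 0.0282).

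**Figure D4:**
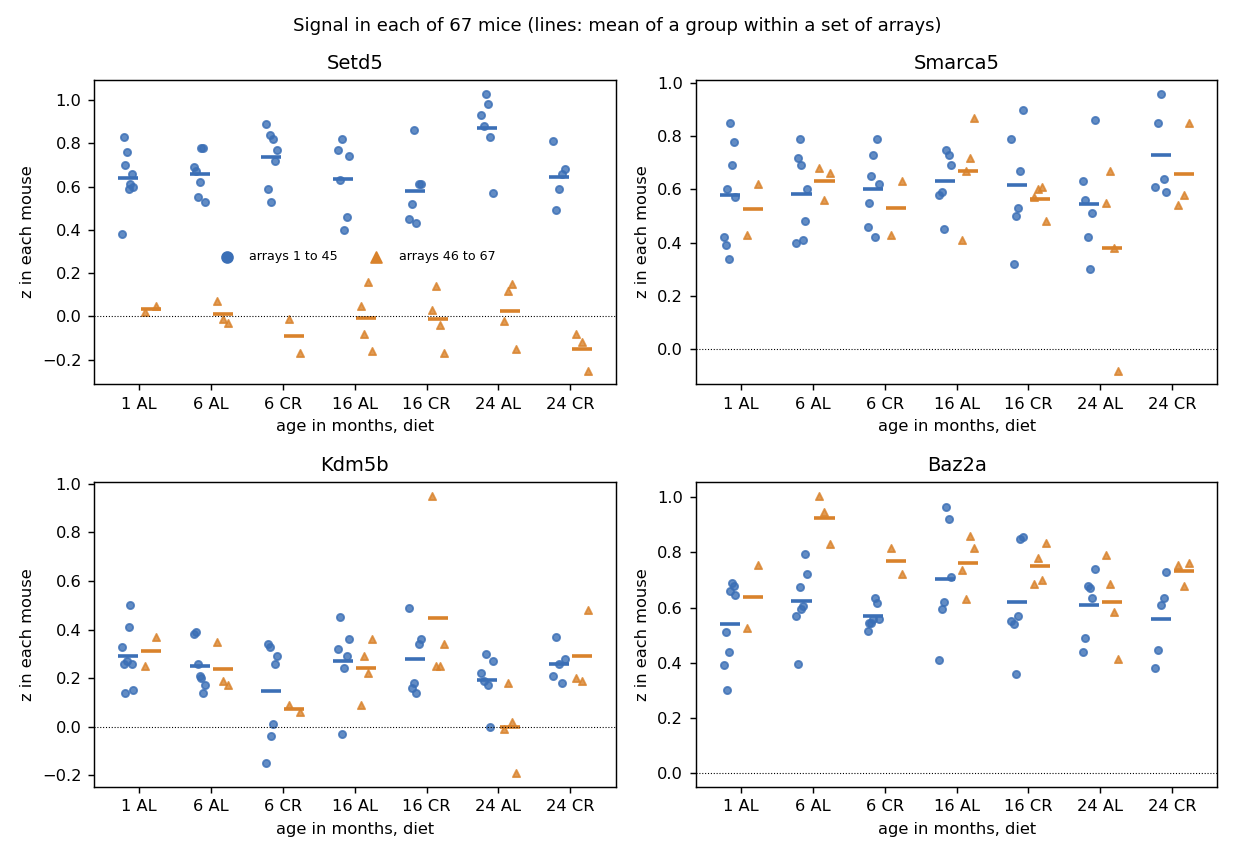
Each point is the z of 1 mouse for Setd5, Smarca5, Kdm5b and Baz2a by age in months and diet (AL, ad libitum; CR, caloric restriction); circles are arrays 1 to 45, triangles arrays 46 to 67, and lines the mean of a group within a set. Setd5 separates by set of arrays in every group, and 1 AL mouse of 24 months, at -0.08 z, lies far below the rest for Smarca5.

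The motors that move nucleosomes and their partner subunits were measured by 6 Smarc, 6 Chd, 3 Baz and 2 Arid genes. Smarca5, the ATPase of the ISWI remodellers (SNF2H), was the only Smarc gene above the filter. AL mice of 16 months ran from 0.41 through 0.68 to 0.87 z, AL mice of 24 months from -0.08 through 0.53 to 0.86 z (n = 10 each) and restricted mice of 24 months from 0.54 through 0.63 to 0.96 z (n = 8). The groups overlapped, and the lowest value of all 67 mice was that of array 67. From 16 to 24 months the difference was -0.166 ± 0.074 z (unadjusted p = 0.0285, adjusted p = 0.293, limma), and under restriction at 24 months 0.221 ± 0.080 z (unadjusted p = 0.00752, adjusted p = 0.239).

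Without array 67 the Smarca5 differences were -0.0999 z (unadjusted p = 0.15) and 0.156 z (unadjusted p = 0.0385). From 6 to 24 months on AL feed Smarca5 differed by -0.114 ± 0.074 z (adjusted p = 0.788, limma), and by -0.051 z without array 67. Under restriction the sign was the same in both sexes (0.205 z in males, 0.240 z in females) and in both sets of arrays (0.193 and 0.248 z). With arrays weighted by their quality, however, it was 0.096 z (unadjusted p = 0.151), and the difference from 16 to 24 months -0.107 z (unadjusted p = 0.108). The restriction difference at 24 minus that at 6 months was 0.247 ± 0.111 z (unadjusted p = 0.0292, adjusted p = 0.486, limma), and 0.179 z without array 67 (unadjusted p = 0.0796). Neuronal markers moved alongside in array 67: the summed z of the 4 measured genes ran from 2.17 to 4.61 in old AL mice, the lowest sum being that of this array, against 3.92 to 5.04 at 16 months and 3.92 to 4.62 in old restricted mice. The astrocyte sum of 3 genes ran from 1.97 to 2.86 in old AL mice, from 1.87 to 2.61 at 16 months and from 1.92 to 2.61 in old restricted mice. The endothelial marker Pecam1 had lowest values of -0.37, 0.28 and 0.49 z in these groups, in that order. For the sum of Mki67, Top2a and Pcna, markers of dividing cells, the lowest values were 0.52, 0.77 and 0.88. A low end in old AL mice was thus not particular to the neuronal list. Single markers moved with the named genes, without passing the adjusted threshold of limma. Stmn3, a neuronal microtubule protein, differed by -0.213 z from 16 to 24 months (unadjusted p = 0.00747) and by 0.186 z under restriction at 24 months (unadjusted p = 0.0289), the signs of Smarca5 and Kdm5b. Of the 4 neuronal markers, 3 were lower and 1 was higher from 16 to 24 months, and 3 were higher and 1 was lower under restriction. Glul, the glutamine synthetase of astrocytes, differed by 0.124 z (unadjusted p = 0.0222) and -0.146 z (unadjusted p = 0.013), the signs of Setd5. Of the 3 astrocyte markers, only Glul was higher from 16 to 24 months and 2 were lower, so Glul does not stand for the list there. Under restriction at 24 months 1 was higher and 2 were lower, Glul among them. The values of Stmn3 and Glul include array 67. The part of these markers in the values of Smarca5, Kdm5b and Setd5 was not tested.

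Baz2a, the large subunit that joins SNF2H in the nucleolar remodelling complex and silences ribosomal DNA, was the only Baz gene tested. AL mice of 1 month ran from 0.30 through 0.59 to 0.76 z and AL mice of 6 months from 0.40 through 0.70 to 1.01 z (n = 10 each), with 4 mice of 6 months above every mouse of 1 month. The difference was 0.141 ± 0.063 z (unadjusted p = 0.0297, adjusted p = 0.999, limma), with 0.079 z in arrays 1 to 45 and 0.291 z in arrays 46 to 67. From 16 to 24 months it was -0.113 ± 0.063 z (adjusted p = 0.410) and from 6 to 24 months -0.114 ± 0.063 z (adjusted p = 0.751). Within arrays 1 to 45 the latter was -0.0096 z and within arrays 46 to 67 -0.312 z, so nearly all of it came from the later set.

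Baz2a had 2 spots, with mean z of -0.016 and 1.31. Taken alone, the brighter spot gave 0.210 ± 0.064 z from 1 to 6 months (unadjusted p = 0.00178), -0.167 ± 0.064 z from 16 to 24 months (unadjusted p = 0.0117) and -0.215 ± 0.064 z from 6 to 24 months (unadjusted p = 0.00141), none past the adjusted threshold of limma. The dimmer spot lay below the filter. Its raw group means differed by 0.069, -0.059 and -0.015 z in these comparisons, the same directions at smaller sizes.

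The Chd genes encode helicase-type ATPases that slide nucleosomes, most of them with chromodomains. Chd7, needed for neural crest and cerebellar development, was at 0.071 ± 0.190 z in AL mice and 0.15 ± 0.167 z in restricted mice of 6 months (SD; n = 10 and 9), a difference of 0.103 ± 0.058 z (adjusted p = 0.993). Chd1l, which has a macro domain in place of chromodomains and is drawn to sites of DNA damage, had the widest spread of the tested genes beside Chd9. Its difference from 16 to 24 months, 0.265 ± 0.155 z, was the largest of any tested member there (unadjusted p = 0.092, adjusted p = 0.414, limma), yet mice of 16 months ran from -0.15 to 1.79 z and mice of 24 months from 0.22 to 2.23 z. These ranges pool the 2 sets, which lie 1.09 z apart for Chd1l. Within the sets the difference from 16 to 24 months was 0.260 and 0.273 z. Chd9, a remodeller tied to nuclear receptors, had group means between 1.69 ± 0.91 z in old AL mice and 2.09 ± 0.63 z at 1 month (SD, n = 10 each), a span narrower than its set difference of -1.46 z. Its age by sex value was -0.250 ± 0.163 z with the set term (adjusted p = 0.587) and 0.042 z without it, and -0.070 z without array 67.

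Chd4, the ATPase of the NuRD complex that couples remodelling to deacetylation, was 0.041 ± 0.028 z lower in females (adjusted p = 0.681). Its spots, at mean z of -0.055 and 0.68, gave raw female minus male gaps of 0.035 and -0.120 z, in opposite directions. Arid2 and Arid1a, DNA-binding subunits of the PBAF and BAF forms of SWI/SNF, had nearly level profiles. Arid2 was 0.037 ± 0.023 z lower in females (adjusted p = 0.636), and -0.058 z against 0.018 z in the 2 sets. Arid1a group means ran from 0.12 ± 0.098 z at 1 month to 0.18 ± 0.11 z at 6 months on AL feed (SD, n = 10 each).

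Readers and scaffolds had no value at unadjusted p < 0.05 among the tested genes named here. Phf5a, a PHD-fold protein that belongs to the spliceosome rather than to a chromatin enzyme, was at 0.44 ± 0.30 z in AL and 0.35 ± 0.22 z in restricted mice of 24 months (SD; n = 10 and 8), a fitted difference of -0.103 ± 0.056 z (adjusted p = 0.483), and -0.064 z without array 67. Phf11d, a PHD-finger gene, kept group means between 1.08 ± 0.15 and 1.13 ± 0.19 z. Cbx7 means ran from 0.43 ± 0.22 to 0.51 ± 0.11 z. Sin3a, the scaffold that brings histone deacetylases to repressors, lay between -0.0015 ± 0.28 and 0.15 ± 0.19 z, and its set difference of -0.48 z was wider than that range.

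The rule of the published methods was also applied to gene means. Genes pass it with a group difference more than 1.5 times the SD of such differences over the array, a positive mean z, and unadjusted p < 0.05 in a plain and in a sex-adjusted test, with no correction for the number of genes. Kdm5b passed it from 16 to 24 months (1 of 22 chromatin genes, 1.26% of all genes) and under restriction at 24 months (1 of 23, 1.93%), and Kmt2c under restriction at 16 months (1 of 22, 0.481%). No chromatin gene passed from 1 to 6 months (1.17% of all genes), 6 to 16 months (0.966%), 6 to 24 months (1.34%) or under restriction at 6 months (2.07%). These calls carry no control of false positives, and the limma values of the same genes are above.

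Other chromatin genes, named in a list of 96 histone variants, chaperones, cofactors and complex partners, were measured for 34 genes, 15 of them above the filter. Limma called 0 of these 15 in every comparison. At unadjusted p < 0.05 there were 2 of 15 between the sexes, beside 9.98% of all genes tested. There was 1 of 15 from 16 to 24 months (14.0% of all genes) and 1 of 15 in the age by sex interaction (7.74%). Without the filter, the smallest p values belonged to Tet3, which oxidises methylated DNA (0.319 ± 0.086 z from 6 to 24 months, unadjusted p = 0.000438, adjusted p = 0.356), and to Ep400, the ATPase of the TIP60 complex. Ep400 differed by -0.204 ± 0.056 z from 16 to 24 months (adjusted p = 0.184) and by 0.215 ± 0.060 z under restriction at 24 months (adjusted p = 0.129), comparisons that share the old AL mice. Both genes were picked here after their values were seen.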

How the data were processed

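The authors hybridised radiolabelled cortex cDNA to filter A of a mouse cDNA filter pair, and read spot intensities with ArrayPro. The authors deposited 1 z score per spot, made within each array (mean 0, SD 1). No counts or backgrounds were used, so the number of arrays limits precision. Columns were matched to groups by title and characteristics; array 27 followed these and not its description. Genes came from the platform's table, spots with several symbols (212) or none (3448) were left out, and spots of a gene were averaged.

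Limma 3.58.1 in R 4.3.3 was fitted to all 67 arrays with 14 group means (16 where the youngest mice were split by days) and the set of arrays as terms, over the 1654 genes with mean z above 0. Sexes were averaged with equal weight. Tests were two-sided, Benjamini-Hochberg adjusted over those genes, at adjusted p < 0.05. The fit was tested on simulated data with known differences. Genes named were to be those past the threshold with the same sign in both sets, or, where fewer than 5 passed, the 5 tested chromatin genes of smallest p, given as not passing, with the tested gene of highest mean z in each subfamily and every Dnmt and Ezh gene. Alternatives were no set term, no filter, array weights, quantile normalization, a prior both trended and robust, each spot alone, each set alone, 5 blocks of running number, adult arrays only, the published z-ratio rule, current symbols and leaving out each array. The genes, lists and settings were chosen with earlier results of these data known. Figures used matplotlib 3.10.9 in Python 3.11.15.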

Additional observations from a re-analysis of the deposited data

Results flagged for a closer look

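Values of the named chromatin genes in 60 groups of 5 to 10 mice were screened for a mouse far from its group; chance alone singles out about 1 in 20 such groups, and 2 of 60 were singled out. Prmt9 in AL mice of 6 months had a female (replicate 5, array 60) at -0.67 z, and the gap to the next mouse, at 0.070 z, was 0.747 of the group's range. Without that mouse the difference from 6 to 16 months was -0.009 z in place of 0.066 z, and the female minus male difference 0.114 z in place of 0.091 z. Kdm5b in restricted mice of 16 months had a male (replicate 4, array 47) at 0.95 z, with the next at 0.49 z and a gap of 0.568 of the range. Without it the restriction difference at 16 months was 0.020 z in place of 0.087 z.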

How the results depend on the processing

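Limma called 0 chromatin genes under every alternative in all 11 comparisons, with a smallest adjusted p of 0.0671 (Smarca5, restriction at 24 months, without AL female replicate 3, difference 0.269 z). The z-ratio rule gave 1 each from 16 to 24 months and for restriction at 16 and at 24 months. Over all genes it gave 19 from 1 to 6, 16 from 6 to 16, 21 from 16 to 24 and 22 from 6 to 24 months, and 34, 8 and 32 for restriction at 6, 16 and 24 months. Array weights called 1 gene from 6 to 24 months, 15 between sexes and 1 in each interaction, where limma otherwise called 0; the restriction interaction also had 1 without the filter. For restriction at 24 months, 2 genes became 4 with 5 blocks and 0 without the set term, without the filter, in either set alone or in adult arrays; leaving out each array gave 0 to 9 there and 0 to 3 between sexes. The cause was not tested. Of 1771 values of named chromatin genes under alternatives, 10 changed sign: in arrays 46 to 67 Setd6 (-0.043 z) and Prmt7 (-0.073 z) from 1 to 6 months, Prmt5 (-0.048 z) and Chd4 (0.049 z) under restriction at 6 and 16 months, and Arid2 between sexes (0.018 z); without the set term Phf5a by days (0.078 z) and Chd9 in age by sex (0.042 z); and with 1 mouse left out Prmt9 from 6 to 16 months (-0.009 to 0.108 z), Setd1b (-0.041 to 0.262 z) and Kmt2c (-0.168 to 0.045 z) by days. Arrays 46 to 67 hold no pup of 17 to 21 days, so that set alone gave no value by days. The 5 blocks follow the running number and nearly coincide with the replicate numbers, which were given in order of that number; with them 5 chromatin genes had unadjusted p < 0.05 from 16 to 24 months (22.7%, against 15.9% of all genes) and 2 for restriction at 24 months. Leaving out 1 array moved 27 of 55 values of named chromatin genes by over 1.5 times. Leaving out array 67 took the count at unadjusted p < 0.05 from 3 to 1 from 16 to 24 months. The share of all genes tested went from 14.0% to 8.12% there. For restriction at 24 months the count went from 3 to 2 and the share of all genes from 10.7% to 6.06%.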

Other observations

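Spread between mice was also compared by age, since it needs no shift of the mean. With group and set means removed, the median root mean square deviation of the 22 tested chromatin genes was 0.110 z at 1 month and, on AL feed, 0.094 z at 6 months, 0.102 z at 16 months and 0.122 z at 24 months. Restricted mice had 0.090, 0.104 and 0.096 z at 6, 16 and 24 months. All genes tested gave 0.106, 0.107, 0.110 and 0.123 z on AL feed and 0.098, 0.112 and 0.109 z under restriction. Old AL mice had the widest spread in both, and these values carry no test. That group includes array 67, which correlated least with the others, and array 27, whose title and free-text description disagree. Its spread without either array was not examined, so the part of these arrays in it is not known.

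Among the genes below the filter, Kmt5b, which places dimethyl and trimethyl marks on histone H4 lysine, was picked after its values were seen because it had the smallest p of the 63 genes. Its restriction difference at 6 months was -0.213 ± 0.064 z (unadjusted p = 0.0015, adjusted p = 0.662, limma without the filter). From 1 to 6 months on AL feed it was 0.125 ± 0.062 z and from 6 to 16 months -0.168 ± 0.062 z, comparisons that share the AL mice of 6 months. Adult females were 0.105 ± 0.037 z below males (adjusted p = 0.428), and its mean z was -0.72, so the spot was dim throughout.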
